A study of Mus musculus with 27 samples.

Results

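The 10 genes described here are the transcription factor gene Trp53 and 9 genes that p53 is known to switch on: Cdkn1a, Mdm2, Zmat3, Eda2r, Ccng1, Trp53inp1, Sesn1, Bax and Phlda3. They were taken by name from the 54752 genes counted. The rule itself uses names and no counts, but the 10 genes were chosen with earlier results of these data known. The samples were subcutaneous tumors that formed in BALB/c mice from CT26, a transplantable colon carcinoma line of the mouse. The cells had been transduced with retrovirus carrying a control guide RNA, a guide against Mettl3 or a guide against Mettl14, and 5 RNA sequencing libraries were deposited for each of these 3 groups. The series design places the tumors under anti-PD-1 antibody, while the protocol, which is the same for all groups, also lists anti-CTLA-4 and IgG, each at 200 µg (10 mg per kg) from day 11 to day 23 after inoculation. The samples titled Mettl14 knockout carry the genotype "Mettl4 KO", and the title was followed. Whole tumors were used, with the host's own immune and stromal cells, so fewer cells of a type and less RNA per cell cannot be told apart. The sources used here give neither the age of the mice nor whether the cells were clones.

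p53, the product of Trp53, is a DNA-binding factor that is stabilised by DNA damage and other stress and then activates genes for cell cycle arrest, repair and cell death. Its level is held down by Mdm2, a ubiquitin ligase that is itself a p53 target, so the pathway contains a feedback loop. Mettl3 is the catalytic subunit and Mettl14 the RNA-binding partner of the complex that writes N6-methyladenosine, a methyl mark on messenger RNA, mostly in contexts such as GGACT.

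p53 binds DNA as a tetramer to paired half-sites, and the promoters of Cdkn1a and Ccng1 are shown because a window of each holds such a pair. Promoter windows from RefSeq (GRCm38.p6, 250 bases before to 50 bases after a gene's start) were found for 8 of the 10 genes, in 10 windows. The p53 half-site of 10 bases is palindromic, so it reads alike on both strands. A pair of adjoining half-sites with at most 2 mismatches in 20 bases, in which the central C and G of each were intact, was found in 107 of all 32851 windows (0.326%). The windows below lie at chr17:29090729-29091028 on the plus strand (Cdkn1a) and chr11:40755237-40755536 on the minus strand (Ccng1), and capitals mark the pair.
Cdkn1a: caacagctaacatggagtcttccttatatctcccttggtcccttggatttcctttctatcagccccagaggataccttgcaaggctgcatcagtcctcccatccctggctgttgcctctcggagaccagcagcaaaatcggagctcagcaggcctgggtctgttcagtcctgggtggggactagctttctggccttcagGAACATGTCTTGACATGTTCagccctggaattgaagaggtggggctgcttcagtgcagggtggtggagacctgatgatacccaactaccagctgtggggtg
Ccng1: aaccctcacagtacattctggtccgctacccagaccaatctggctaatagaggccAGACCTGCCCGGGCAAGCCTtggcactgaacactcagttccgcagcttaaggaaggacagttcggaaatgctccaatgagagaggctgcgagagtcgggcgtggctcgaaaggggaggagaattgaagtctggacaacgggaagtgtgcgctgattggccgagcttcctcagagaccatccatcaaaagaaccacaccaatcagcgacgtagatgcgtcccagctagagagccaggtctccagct
The Cdkn1a pair, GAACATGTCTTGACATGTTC, lies 51 to 32 bases before the start, and the Ccng1 pair, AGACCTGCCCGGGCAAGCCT, lies 195 to 176 bases before it. Each has 1 mismatch. These distances are to the start of the window shown. A second Cdkn1a window, at chr17:29093519-29093818 for another start of the gene, held no pair and no half-site without a mismatch. A single half-site without a mismatch was present for 6 of the 8 genes, in 6 of their 10 windows, against 8.36% of all windows. These matches describe letters in the window and no binding was measured.

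Reads on genes ranged from 4354273 to 20978633 per library. Control replicate 1 stood apart: 78.6% of its uniquely aligned reads fell outside genes, against 44.3% to 53.8% in the other controls, 60.2% to 78.0% in Mettl3 knockout and 53.6% to 65.9% in Mettl14 knockout tumors. It was the lowest control for 9 of the 10 p53 genes, and 8 of the 10 were highest, among the Mettl3 knockout libraries, in replicate 2 or 5, where the share outside genes was lowest. Counts of calls, overlaps and medians against control are therefore also given without that library. The share outside genes of the other controls, 44.3% to 53.8%, did not overlap that of Mettl3 knockout, 60.2% to 78.0%. In values without that library, Mettl3 knockout and this share therefore cannot be told apart. The targeted genes checked the labels only weakly: Mettl3 averaged 19.4 ± 3.56 CPM (SD, n = 5; reads of the gene scaled to a common library size) in control and 13.7 ± 1.44 CPM in Mettl3 knockout tumors. Its log2 fold change was -0.56 ± 0.15 (± SE; edgeR quasi-likelihood test, Benjamini-Hochberg adjusted p = 0.0545). Mettl14 averaged 68.9 ± 11.6 CPM in control and 61.1 ± 12.3 CPM in Mettl14 knockout tumors (log2 fold change -0.21 ± 0.17, edgeR adjusted p = 0.735). In Mettl3 knockout tumors Mettl14 was at 54.4 ± 15.96 CPM (log2 fold change -0.40 ± 0.18, edgeR adjusted p = 0.141), no higher than in Mettl14 knockout tumors. Against genes of like abundance the value of Mettl3 in Mettl3 knockout was -0.23. Small edits in the DNA need not lower the transcript, and the protein was not measured. Summed over 7 genes, the epithelial markers ranged from 187.4 to 240.1 CPM in control, 56.9 to 111.9 CPM in Mettl3 knockout and 83.7 to 169.2 CPM in Mettl14 knockout tumors, but Krt20 made up most of that sum, with means of 185.6, 57.2 and 102.4 CPM. In Mettl3 knockout 2 of the 6 tested epithelial markers had log2 fold changes below 0, and the median was 0.46. Against genes of like abundance 4 of the 6 were below 0, and the median was -0.26. The defining marker Epcam was at 0.414 to 4.02 CPM in control and 1.09 to 6.15 CPM in Mettl3 knockout tumors.

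All 10 genes were read in every library, with 58 to 3280 counts each, and all passed the filter on low counts. Levels were compared between genes only per kilobase of exon. In control tumors Ccng1 was highest, at 48.0 ± 15.01 CPM per kilobase, followed by Phlda3 (29.0 ± 12.7) and Mdm2 (28.8 ± 5.80). Bax (19.5 ± 6.63), Trp53 (13.8 ± 3.94) and Cdkn1a (12.6 ± 4.10) were intermediate. Sesn1 (7.36 ± 2.38), Eda2r (6.77 ± 1.74), Zmat3 (6.004 ± 1.41) and Trp53inp1 (4.64 ± 1.14) were lowest. In this order no neighbouring pair had separate ranges over the 5 control libraries. Mdm2 lay above Phlda3 in all Mettl3 knockout libraries with no overlap, and Trp53 above Sesn1 in all Mettl14 knockout libraries.

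**Figure D1:**
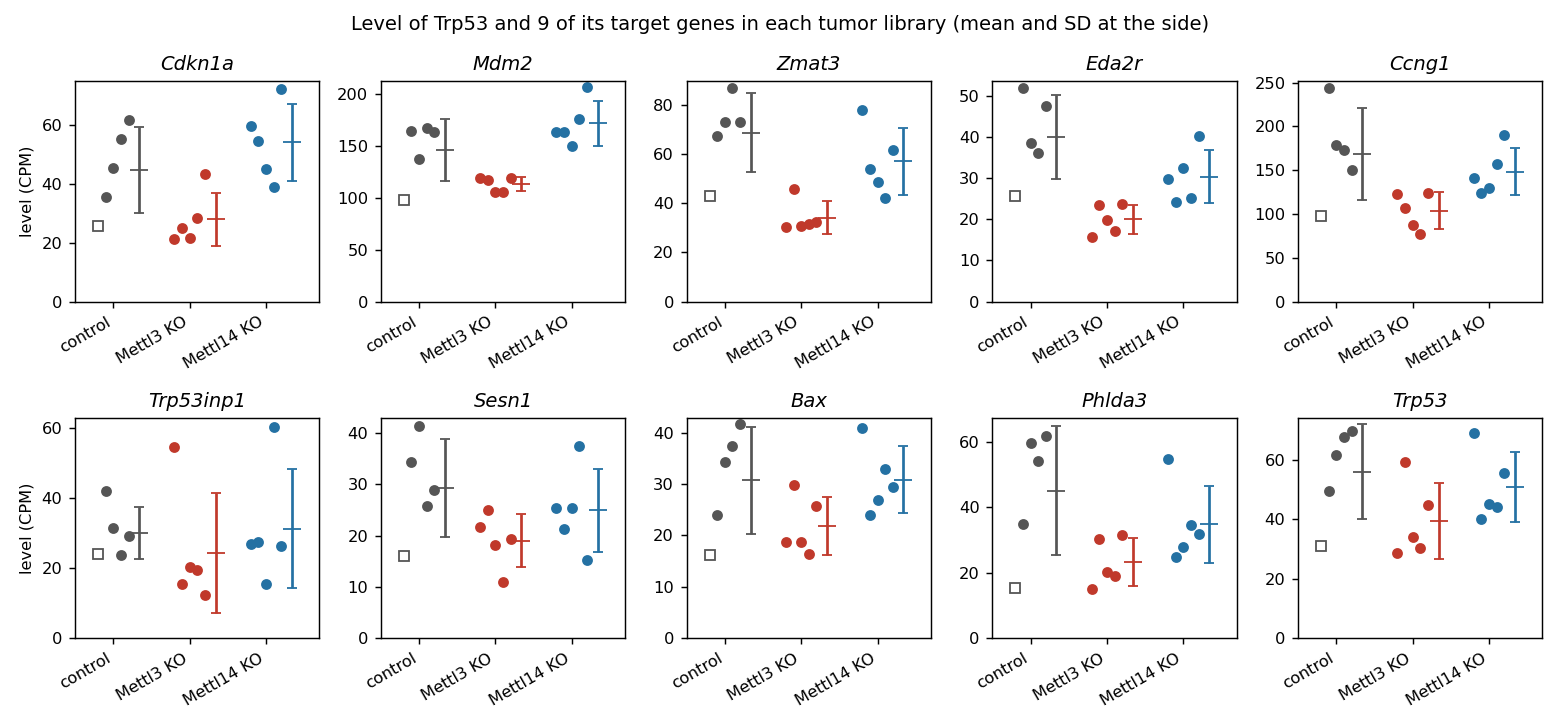
Level of each of the 10 p53 genes (CPM, vertical axis) in each of the 15 libraries, by group. Points are libraries, the open square is control replicate 1, and bars show mean and SD over 5 libraries; Eda2r is the gene whose Mettl3 knockout points all lie below its control points.

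The first question was how Mettl3 knockout tumors differed from control tumors. Zmat3 and Eda2r fell, with log2 fold changes of -1.07 and -1.05, and none of the 10 rose. The other 8 genes had log2 fold changes from -1.04 to -0.35 that did not pass the test. The 2 of 10 genes called lower compare with 0.835% of all 21427 genes tested (179 genes), and 87 genes (0.406%) were called higher. At an unadjusted p under 0.05, 9 of the 10 were lower, against 27% of all genes, and log2 fold changes were below 0 for 10 of the 10 and for 55.1% of all. These shares of all genes were not matched for level. From 16 to 256 CPM, where the 10 genes lie, 91.2% of genes were below 0. Scaling by DESeq2's size factors called 28 genes lower (0.131%) and 72 higher (0.336%) in place of 179 and 87, kept Zmat3 and Eda2r, and moved the median of all genes from -0.14 to -0.05. With library totals that median was 0.02, and all 10 genes stayed below 0.

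Zmat3 encodes a zinc finger RNA-binding protein that acts in the tumor suppressor programme of p53. Its gene lies on chromosome 3 from 32334792 to 32366014 on the minus strand (mm10). It was read at 42.8, 67.6, 72.9, 86.8 and 73.1 CPM in control replicates 1 to 5, at 30.3, 45.9, 30.8, 31.8 and 32.2 CPM in Mettl3 knockout and at 78.2, 54.1, 48.8, 42.3 and 61.8 CPM in Mettl14 knockout tumors. Mettl3 knockout levels lay below 4 of the 5 controls, with an overlap only through control replicate 1. The log2 fold change was -1.07 ± 0.18 (SE; edgeR quasi-likelihood test, adjusted p = 0.0266).

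Eda2r encodes the ectodysplasin A2 receptor, a member of the tumor necrosis factor receptor family. Its gene lies on chromosome X from 97333840 to 97377216 on the minus strand. Control levels were 25.6, 51.8, 38.5, 36.1 and 47.5 CPM, Mettl3 knockout levels 15.7, 23.5, 19.9, 17.2 and 23.6 CPM, and Mettl14 knockout levels 29.7, 24.1, 32.4, 25.3 and 40.2 CPM. All 5 Mettl3 knockout libraries were below all 5 controls, which held for this gene alone among the 10 and for 1.68% of all genes tested. The log2 fold change was -1.05 ± 0.18 (edgeR adjusted p = 0.0271).

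Both calls depended on the libraries and the model. Without control replicate 1, Zmat3 changed by -0.98 ± 0.15 (edgeR adjusted p = 0.00154) and Eda2r by -0.95 ± 0.16 (adjusted p = 0.00165). The median of the 10 was then -0.65, and 8 of the 10 genes were called lower, all but Mdm2 and Trp53inp1, while 15.4% of all genes were called lower and 36.2% higher. In that setting the 2 groups did not overlap in the share of reads outside genes. Below controls 2 to 5 with no overlap lay 6 of the 10 (Mdm2, Zmat3, Eda2r, Ccng1, Sesn1 and Phlda3), against 17.7% of all genes. With the share of reads outside genes as a covariate none of the 10 was called, against 0.0793% of all genes called lower: Zmat3 was at -0.79 ± 0.17 (adjusted p = 0.0568) and Eda2r at -0.75 ± 0.17 (adjusted p = 0.0720). Other values also shrank in size with the covariate: Phlda3 to -0.21, Sesn1 to -0.21, Trp53 to -0.12, Bax to -0.056, Cdkn1a to -0.35, Ccng1 to -0.43 and Mdm2 to -0.22. Trp53inp1 moved the other way, from -0.35 to -0.48. The median of the 10 fell in size from -0.72 to -0.29. Leaving out Mettl3 knockout replicate 2 left Zmat3 as the only call, and leaving out any 1 of the other 8 libraries left none. DESeq2 called 4 of the 10 lower, Zmat3, Eda2r, Ccng1 and Phlda3, with 10.3% of all genes. Over all alternatives the adjusted p ranged from 6.69e-05 to 0.157 for Zmat3 and from 0.000324 to 0.160 for Eda2r.

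**Figure D2:**
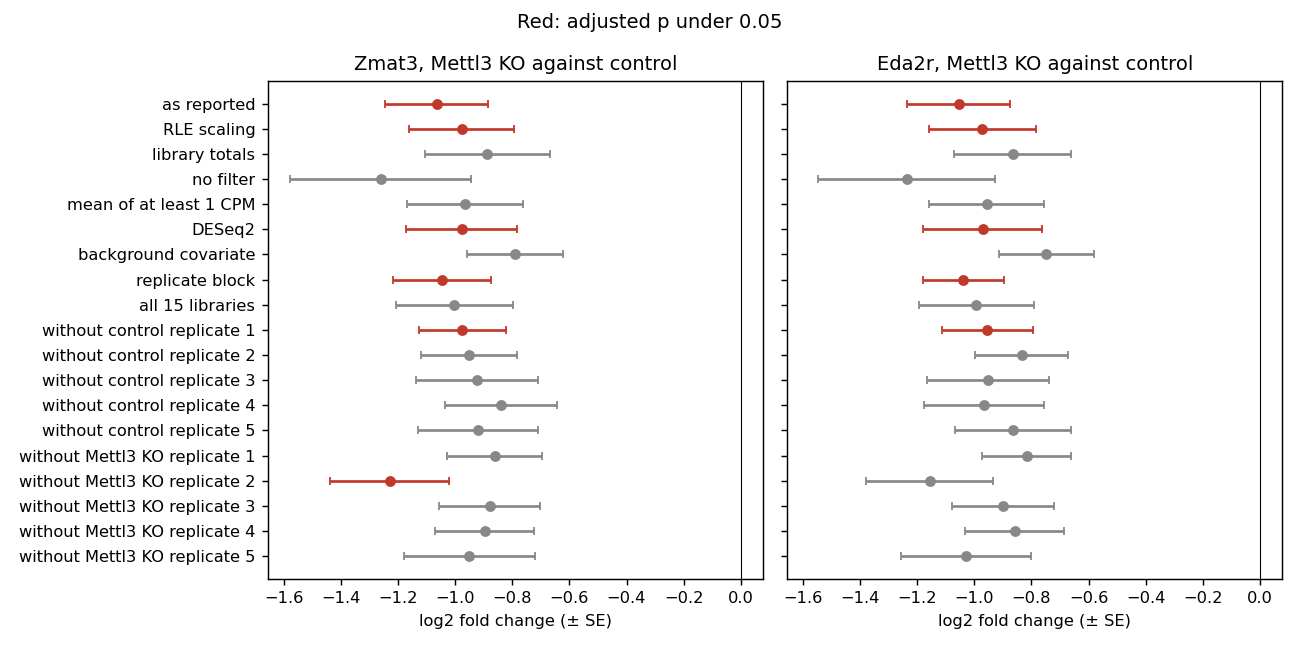
Log2 fold change of Zmat3 and Eda2r between Mettl3 knockout and control tumors (horizontal axis, with SE) under each processing setting (vertical axis). All points lie below 0, between -1.26 and -0.75, and red marks an adjusted p under 0.05.

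Of the factor and its feedback regulators, Trp53 itself (chromosome 11, 69580359 to 69591873, plus strand) was at 31.1, 49.5, 61.8, 67.8 and 69.5 CPM in control, 28.7, 59.3, 34.1, 30.4 and 44.7 CPM in Mettl3 knockout and 69.1, 40.2, 45.2, 44.3 and 55.7 CPM in Mettl14 knockout tumors. The control and Mettl3 knockout ranges overlapped (log2 fold change -0.58 ± 0.23, edgeR adjusted p = 0.118). Mdm2 (chromosome 10, 117688875 to 117710758, minus strand) was at 98.2, 165.0, 137.4, 167.1 and 163.8 CPM in control, 119.7, 116.8, 105.4, 106.0 and 119.5 CPM in Mettl3 knockout and 164.1, 163.8, 149.7, 175.7 and 207.3 CPM in Mettl14 knockout tumors. Its Mettl3 knockout libraries were close together and below 4 of the 5 controls (log2 fold change -0.42 ± 0.16, edgeR adjusted p = 0.0961). Ccng1 encodes cyclin G1, which binds Mdm2 and a phosphatase subunit (chromosome 11, 40748552 to 40755311, minus strand). It was at 97.7, 243.5, 179.1, 173.2 and 149.9 CPM in control, 122.9, 107.4, 86.9, 77.3 and 124.1 CPM in Mettl3 knockout and 140.5, 124.3, 129.1, 156.8 and 190.5 CPM in Mettl14 knockout tumors. As for Mdm2, 4 of the 5 controls lay above every Mettl3 knockout library (log2 fold change -0.75 ± 0.21, edgeR adjusted p = 0.0559).

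Cdkn1a encodes p21, the inhibitor of cyclin-dependent kinases through which p53 arrests the cell cycle (chromosome 17, 29090976 to 29100727, plus strand). Its levels were 25.6, 35.4, 45.4, 55.2 and 61.6 CPM in control, 21.2, 25.0, 21.7, 28.4 and 43.1 CPM in Mettl3 knockout and 59.7, 54.4, 45.0, 38.7 and 72.1 CPM in Mettl14 knockout tumors. Replicates 1, 2 and 3 of the Mettl3 knockout group lay below the lowest control, and the groups overlapped (log2 fold change -0.75 ± 0.26, edgeR adjusted p = 0.0835). An annotated transcript on the opposite strand shares 273 of the 3553 exon bases of Cdkn1a, and the strand setting of the counting is unknown. Sesn1 encodes sestrin 1, a stress protein that restrains mTORC1 signalling (chromosome 10, 41809935 to 41908424, plus strand). It ranged from 16.1 to 41.5 CPM in control, 10.96 to 24.9 CPM in Mettl3 knockout and 15.3 to 37.5 CPM in Mettl14 knockout tumors (log2 fold change for Mettl3 knockout -0.69 ± 0.24, edgeR adjusted p = 0.0858).

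The remaining 3 genes act in cell death. Bax encodes a protein that permeabilises the mitochondrial outer membrane (chromosome 7, 45461697 to 45466898, minus strand). It was at 16.1, 23.9, 34.4, 37.4 and 41.6 CPM in control, 18.7, 29.8, 18.8, 16.4 and 25.8 CPM in Mettl3 knockout and 41.0, 24.0, 26.9, 33.0 and 29.4 CPM in Mettl14 knockout tumors. No Mettl3 knockout library was below control replicate 1 (log2 fold change -0.57 ± 0.25, edgeR adjusted p = 0.139), and 192 of the 1576 exon bases of Bax are shared with another gene model on the same strand. Phlda3, an inhibitor of Akt signalling, lies on chromosome 1 from 135766119 to 135769136 on the plus strand. It was at 15.3, 34.9, 59.5, 54.3 and 61.7 CPM in control, 15.04, 30.3, 20.2, 18.9 and 31.6 CPM in Mettl3 knockout and 54.8, 24.8, 27.9, 34.7 and 31.8 CPM in Mettl14 knockout tumors. Its log2 fold change of -1.04 ± 0.33 was as low as those of Zmat3 and Eda2r, but control replicate 1 lay among the knockout libraries and the SE was larger (edgeR adjusted p = 0.0690). Trp53inp1, a promoter of autophagy and cell death (chromosome 4, 11156431 to 11174379, plus strand), was at 24.0, 41.9, 31.5, 23.8 and 29.1 CPM in control, 54.5, 15.5, 20.2, 19.5 and 12.3 CPM in Mettl3 knockout and 26.9, 27.4, 15.5, 60.2 and 26.2 CPM in Mettl14 knockout tumors. Mettl3 knockout replicate 1 was above every control and the other 4 knockout libraries were below every control (log2 fold change -0.35 ± 0.37, edgeR adjusted p = 0.465).

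In the authors' deposited table for Mettl3 knockout, 3 of the 10 genes were lower with an adjusted p under 0.05: Zmat3 (log2 fold change -0.93, adjusted p = 0.000182), Eda2r (-0.93, adjusted p = 0.00135) and Ccng1 (-0.64, adjusted p = 0.0369). In the authors' deposited table, a share of 8.18% of the 16160 genes with an adjusted p were lower at that threshold.

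The fold changes of Mettl3 knockout varied with abundance over all genes. Among tested genes with an average under 2 CPM the median log2 fold change was 0.95, and from 16 to 256 CPM, where the p53 genes lie, it was -0.47, with 91.2% of genes below 0. A direction below 0 was thus shared by most genes of like level. Against the median of genes in the same 1 of 50 bins of abundance, the median of the 10 genes was -0.23 in place of -0.72, and 8 of the 10 lay below their bin. Eda2r (-0.63), Zmat3 (-0.59) and Phlda3 (-0.59) were farthest below their bins, Cdkn1a was at -0.30, and Mdm2 (0.14) and Trp53inp1 (0.07) lay above theirs. These are differences between log2 fold changes, given with no test.

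**Figure D3:**
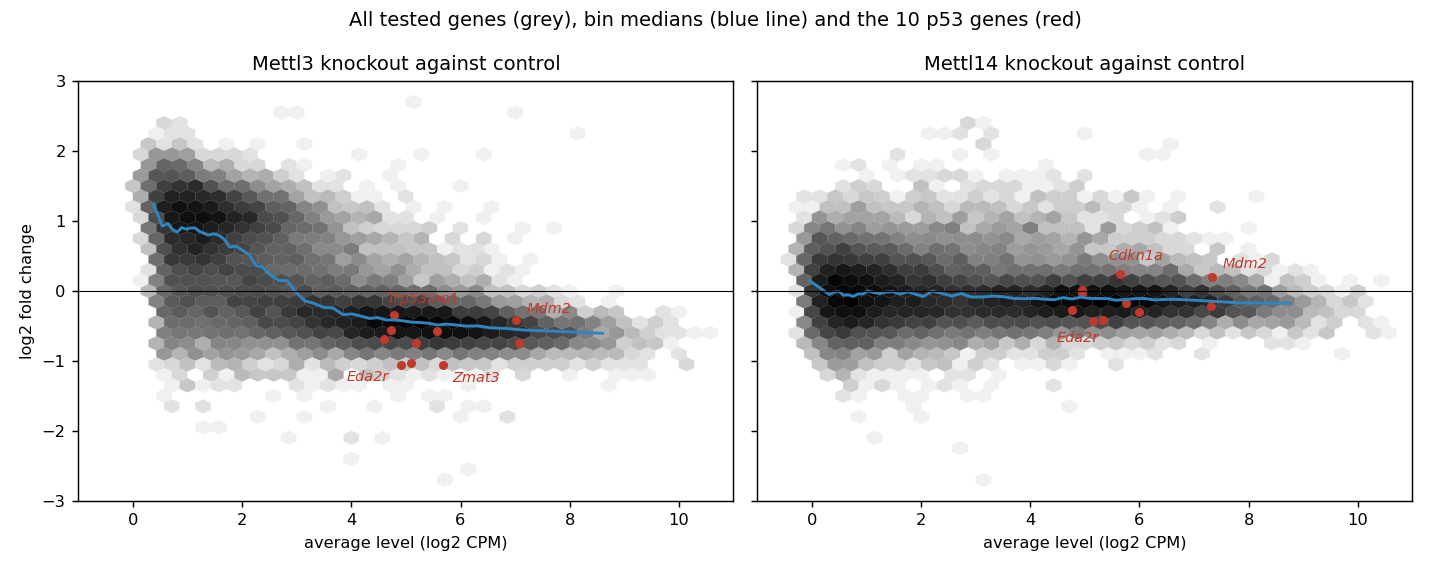
Log2 fold change (vertical axis, shown from -3 to 3) against average level (log2 CPM, horizontal axis, shown to 11) for all tested genes in each knockout comparison. Grey shading is the number of genes on a log scale, the blue line is the median of each of 50 abundance bins and red points are the 10 p53 genes, which lie at levels where the line is below 0 in Mettl3 knockout and near 0 in Mettl14 knockout.

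The second comparison set Mettl14 knockout tumors against the same 5 controls. By edgeR none of the 10 genes was called, as for all 21555 genes tested (0%). At an unadjusted p under 0.05, 1 of the 10 was lower, against 6.6% of all genes. DESeq2 called none of the 10 and 505 of all genes (0.84% lower, 1.5% higher). Log2 fold changes were below 0 for 7 of the 10, for 60.8% of all genes and for 70.3% of genes from 16 to 256 CPM. Eda2r had the smallest p, with a log2 fold change of -0.42 ± 0.19 (edgeR adjusted p = 0.430), and its Mettl14 knockout range of 24.1 to 40.2 CPM overlapped the controls. Cdkn1a (0.24 ± 0.24, edgeR adjusted p = 0.824) and Mdm2 (0.20 ± 0.15, adjusted p = 0.692) had positive values. Phlda3 was at -0.41 ± 0.32, Zmat3 at -0.30 ± 0.19, Sesn1 at -0.28 ± 0.25 and Ccng1 at -0.21 ± 0.20. Trp53 was at -0.17 ± 0.21, Trp53inp1 at 0.01 ± 0.29 and Bax at -0.03 ± 0.23, with the sign of Bax turning to 0.13 with library totals. The groups overlapped for all 10 genes, also without control replicate 1, against 0.701% of all genes that lay below every control and 6.21% that lay below controls 2 to 5. The median of the 10 was -0.19, or -0.05 against genes of like abundance. It was -0.31 without control replicate 1, where no gene of the 10 was called either, -0.073 with the covariate for reads outside genes and -0.013 with library totals. In the authors' deposited table for Mettl14 knockout none of the 10 had an adjusted p under 0.05, against 0.949% of genes that were lower.

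The knockouts were then compared with each other in a fit of all 15 libraries. By edgeR none of the 10 genes and none of 24566 genes (0%) was called, and 5 of the 10 were lower in Mettl3 knockout at an unadjusted p under 0.05, against 8.04% of all genes. By DESeq2 none of the 10 and 68 of all genes were called (0.0814% lower, 0.195% higher). All 10 had log2 fold changes below 0, as had 50.7% of all genes. Among genes from 16 to 256 CPM, where the p53 genes lie, 95.6% were below 0. Cdkn1a had the value farthest below 0, -0.95 ± 0.25 on the log2 scale, with 27.9 ± 9.001 CPM in Mettl3 knockout and 53.99 ± 12.99 CPM in Mettl14 knockout tumors, followed by Zmat3 (-0.74 ± 0.20), Mdm2 (-0.60 ± 0.16), Eda2r (-0.60 ± 0.20) and Ccng1 (-0.52 ± 0.22), all with an edgeR adjusted p of 0.349. Mdm2, Eda2r and Ccng1 had no overlap between the groups, against 1.88% of all genes in that direction. For Mdm2 the highest Mettl3 knockout library was at 119.7 CPM and the lowest Mettl14 knockout library at 149.7 CPM. Phlda3 (-0.58), Bax (-0.49), Sesn1 (-0.39), Trp53inp1 (-0.38) and Trp53 (-0.36) were also at values below 0 that did not pass the test. All 10 lay below genes of like abundance, by a median of -0.22. The median log2 fold change of the 10 was -0.55, and -0.35 with the covariate for reads outside genes. Over all alternatives Cdkn1a ranged from -1.21 to -0.69. The values nearest 0 were -0.036 for Phlda3, -0.023 for Sesn1 and -0.044 for Trp53, and Trp53inp1 reached 0.065.

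**Figure D4:**
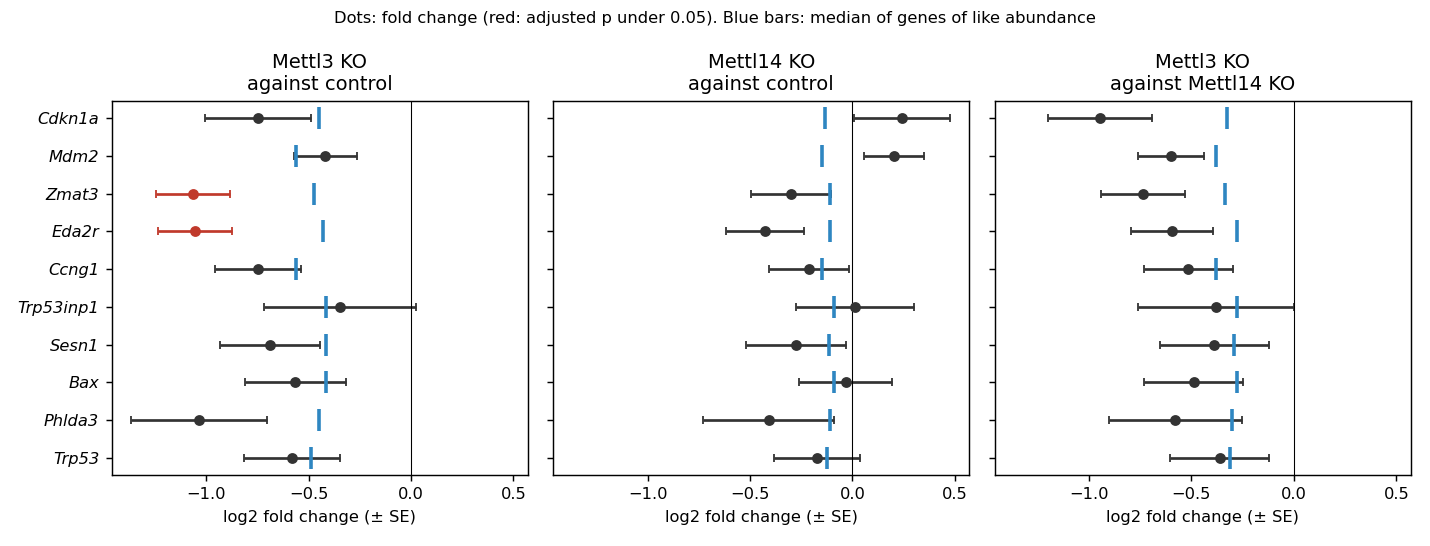
Log2 fold change with SE (horizontal axis) of the 10 p53 genes (vertical axis) in the 3 comparisons. Red marks an adjusted p under 0.05, which only Zmat3 and Eda2r reached and only for Mettl3 knockout against control, and blue bars are the medians of genes of like abundance.

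The wider pathway was described with lists that did not hold the 10 genes. Of 31 other p53 targets, 29 passed the filter in Mettl3 knockout against control, 1 fell and none rose, against 0.835% of all genes called lower and 0.406% called higher. Their median log2 fold change was -0.48, or -0.13 against genes of like abundance. That gene was Gadd45a, which acts in arrest and repair, at 18.2 ± 6.17 CPM in control and 8.19 ± 2.19 CPM in Mettl3 knockout tumors (log2 fold change -1.23 ± 0.26, edgeR adjusted p = 0.0484). Its call was lost with DESeq2's size factors as scaling (adjusted p = 0.0726), and over all alternatives the adjusted p ranged from 0.00296 to 0.203. Without control replicate 1 Gadd45a was at -0.97 ± 0.25 (edgeR adjusted p = 0.00584). Without that library 9 of the 29 other targets were called lower and 2 (Pmaip1 and Cpt1c) higher, with a median of -0.29, against 15.4% and 36.2% of all genes. By role, the medians were -0.38 for 9 apoptosis targets, -0.51 for 11 arrest and repair targets and -0.31 for 9 metabolism and stress targets. In the same order they were -0.08, -0.13 and -0.15 against genes of like abundance. Without control replicate 1 they were -0.27, -0.39 and -0.19. Among named targets, the BH3 proteins Bbc3 (-0.38 ± 0.28) and Pmaip1 (0.61 ± 0.36), the nuclease Aen (-0.74 ± 0.23), the sestrin Sesn2 (-0.70 ± 0.36) and the metabolic enzyme Tigar (-0.70 ± 0.18) did not pass the test. Of 17 regulators of p53, 16 were tested and none passed, with a median of -0.45 that was 0.01 against genes of like abundance. At an unadjusted p under 0.05, 13 of these 16 and 14 of the 29 other targets were lower, against 27% of all genes, a share not matched for level. Without control replicate 1, 6 of the 16 were called lower and 2 higher, with a median of -0.36. Those 2, named after their values were seen, were Trp63 and Trp73, relatives of Trp53. The regulator list held Mdm4, the partner of Mdm2, at -0.58 ± 0.18, and the ubiquitin ligase gene Cop1 at -0.79 ± 0.19. Cdkn2a, which encodes the Mdm2 antagonist Arf, had 1 to 27 counts per library and did not pass the filter.

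Cell cycle genes that p53 represses through p21 and the DREAM complex were the last list. None of the 20 passed in Mettl3 knockout, where 3 were lower at an unadjusted p under 0.05, a smaller share than the 27% of all genes. Without control replicate 1, Ccne2 and Cdk1 were called lower, the latter named after its value was seen. Their median over all libraries was -0.31, or 0.17 against genes of like abundance, with -0.20 without control replicate 1 and 0.041 with the covariate, and Ccne2 had the smallest p (-0.67 ± 0.22, edgeR adjusted p = 0.0692). In Mettl14 knockout none of the genes of these 5 lists was called by edgeR, and the medians were -0.10, -0.25, -0.06, -0.16 and -0.12 in the order above. They were -0.19, -0.29, -0.079, -0.21 and -0.21 without control replicate 1, where 1 metabolism and stress target, Cpt1c, was called higher and 1 cell cycle gene, Ccnb1, lower. With library totals the signs turned for 4 of the 5 lists: apoptosis 0.068, metabolism and stress 0.11, regulators 0.018 and cell cycle 0.050, with arrest and repair at -0.087. The smallest p among them was that of Rrm2b, a subunit of ribonucleotide reductase, at -0.41 ± 0.12 (edgeR adjusted p = 0.246). Fas, a death receptor gene, was at 0.73 ± 0.28.

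**Figure D5:**
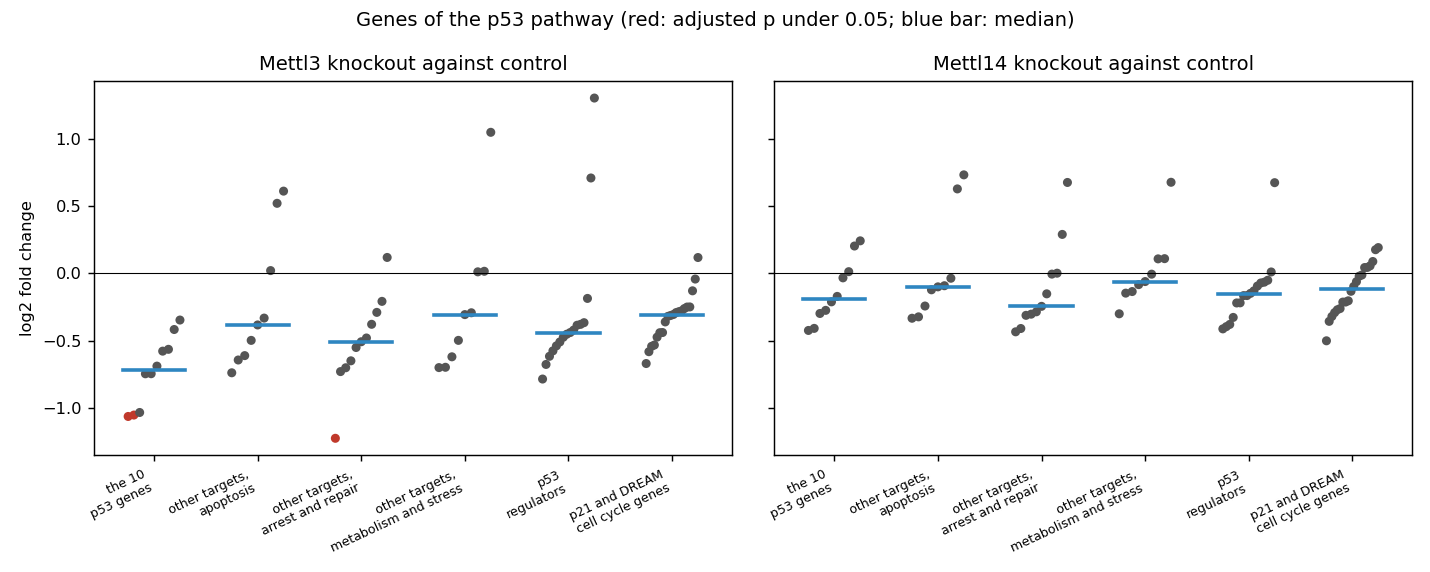
Log2 fold change (vertical axis) of each tested gene of the p53 pathway in each knockout comparison, by list (horizontal axis). Red marks an adjusted p under 0.05 and blue bars are medians; the 3 red points are Zmat3, Eda2r and Gadd45a in Mettl3 knockout.

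Over the 15 libraries the 10 genes varied together to different degrees. The median Pearson correlation of log2 CPM over 45 pairs was 0.65, from -0.08 to 0.94, and 0.54 after centring each group. Trp53 with Phlda3 was the highest pair (0.94), with Trp53 and Bax next to it (0.94), and Trp53inp1 correlated least with the others (median 0.11). The genes whose levels most resembled the mean of the 10 were Spty2d1 (r = 0.98), Zfp236 (0.96), Tpp1 (0.96), Gps1 (0.95) and Ddx18 (0.95), among 11355 genes with a median r of 0.67. All these points share libraries that differ in depth and in the share of reads outside genes, and the part of those in the correlations was not tested.

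GGACT, a frequent context of N6-methyladenosine, was counted in the longest coding transcript of each gene in the GENCODE M21 annotation. The median was 1.23 per kilobase for the 10 genes and 1.04 over 17543 tested coding genes, and 7 of the 10 were over that median. Zmat3 held 9 in 7797 bases, Eda2r 7 in 4752, and Bax 3 in 1100, whereas Trp53 held 0 in 1867. No methylation was measured in these libraries, and the 12 immunoprecipitation and input libraries of the series were not analysed here.

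Marker levels of other tissues and cells are given as ranges, and the sums were not tested. By edgeR no T cell, skeletal muscle, macrophage, fibroblast, endothelial or keratinocyte marker was called in any comparison. In Mettl3 knockout against control 3 of 5 erythroid markers were called lower, against 0.835% of all genes. T cell markers, summed over 7 genes, ranged from 11.4 to 41.1 CPM in control, 50.2 to 157.7 CPM in Mettl3 knockout and 28.7 to 234.4 CPM in Mettl14 knockout tumors. Erythroid markers, summed over 5 genes, ranged from 62.6 to 295.9, 21.5 to 60.4 and 26.5 to 59.4 CPM in the same order, and mitochondrial reads made up 3.53% to 8.85%, 1.41% to 2.64% and 3.06% to 5.41% of reads on genes. Skeletal muscle markers ranged from 29.4 to 291.7, 28.5 to 714.1 and 3.80 to 33.4 CPM. No marker of these lists was at 0 in all libraries, and the part of these cells in the levels of the p53 genes was not tested.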

How the data were processed

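Tumor RNA was sequenced in 15 libraries as single reads of 75 nucleotides, per the labels' protocols, which mention both ribosomal depletion and poly(A) selection. Per the submitters' processing notes, the build was mm10 and DESeq2, HTSeq 0.11.2, HISAT2 2.1.0 and cutadapt 1.18 were used, with no order or settings given. Raw counts of reads for each Ensembl gene were deposited as 1 table per knockout, and the same 5 control libraries, in both tables, were used once. Summary lines for reads not assigned to any single gene, ambiguous reads among them, held 56.8% to 86.2% of reads and were left out of library sizes. The authors also deposited, per the file headers, a table per knockout with a mean normalised signal, log2 fold changes, a test score and p-values, made with settings that the headers do not state.

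Symbols matched 54723 of 54752 gene IDs, and positions and exon lengths came from GENCODE M21. The edgeR 4.0.16 quasi-likelihood test (R 4.3.3) was fitted to all genes kept by filterByExpr at a minimum count of 10, with TMM scaling and robust dispersion. P-values were adjusted by Benjamini-Hochberg over all tested genes at a threshold of 0.05. Each knockout comparison used its 10 libraries, both share the controls, and the knockouts were compared in a fit of all 15. Levels are CPM on a TMM scale, with n = 5. Correlations used log2(CPM + 1). The script was tested on simulated data. The counts of all 30 replicate pairs differed beyond sampling noise (lowest chi-square per gene 9.14). The labels do not tie samples to animals, so p-values cover only the spread between libraries, which may be technical.

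The 10 genes and all lists were chosen with earlier results of these data known. Beside the 10 genes, the text names those pathway genes with an adjusted p under 0.05 (at most 4 per list), or else the gene of smallest p in each list, and Bbc3, Pmaip1, Mdm4, Cdkn2a, Sesn2, Mettl3 and Mettl14. It also names the 5 genes most like the mean of the 10 among those with a mean of at least 5 CPM. Alternatives were other scalings, filters, DESeq2 1.42.0, a covariate for reads outside genes, a replicate block, other sample sets and leaving out each library.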

Additional observations from a re-analysis of the deposited data

Results flagged for a closer look

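In 30 sets of 5 libraries (10 genes in 3 groups), 3 held a library set apart from the rest of its group by Dixon's criterion at the 95% level, where 1 in 20 sets, about 1.5, would be set apart by chance. Zmat3 was at 45.9 CPM in Mettl3 knockout replicate 2, with the next library at 32.2 CPM. Trp53inp1 was at 54.5 CPM in Mettl3 knockout replicate 1, with the next at 20.2 CPM. Trp53inp1 was also at 60.2 CPM in Mettl14 knockout replicate 4, with the next at 27.4 CPM.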

How the results depend on the processing

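Against the 2 p53 genes called between Mettl3 knockout and control, the number was 0 with library totals, 0 with no filter, 0 with a mean of at least 1 CPM, 0 with the covariate for reads outside genes, 0 in a fit of all 15 libraries, 4 with DESeq2, 5 with a replicate block, and 0 to 8 with 1 library left out, the highest without control replicate 1. Over all genes, 266 were called as reported, and 100 with DESeq2's size factors, 122 with library totals, 62 with no filter, 81 with a mean of at least 1 CPM, 55 with the covariate, 42 in the fit of all 15, 2700 with DESeq2, 6002 with the replicate block, and 35 to 11625 with 1 library left out. For Mettl14 knockout, in place of 0, 47 genes were called with no filter, 505 with DESeq2, 14 with the replicate block, 50 in the fit of all 15 and 0 to 1054 with 1 library left out. Between the knockouts, in place of 0, DESeq2 called 68 and leaving out 1 library 0 to 1. The replicate numbers share only a number: deviations of same-numbered libraries correlated from -0.737 to 0.613, and none correlated best with its own number. The medians against genes of like abundance moved by less than their spread with 20 bins and with DESeq2's size factors. The cause of these changes was not tested.

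The values below changed sign, and none was called as reported. For Mettl14 knockout against control these were, with library totals, Bax 0.13, Mdm4 0.011, Aen 0.13 and Tigar 0.086; with the covariate, Bax 0.13 and Aen 0.094; with the replicate block, Trp53inp1 -0.098 and Bax 0.00293; and in the fit of all 15, Bax 0.00364. Between the knockouts, Ccnb1 was at -0.025 with library totals, -0.15 with no filter and -0.081 with the replicate block. Bbc3 was at 0.20 and Cpt1c at -0.40 (0.34 as reported) with the covariate, and Bbc3 at 0.047 and Pmaip1 at 0.029 with only the 10 knockout libraries. With 1 library left out, the values of Mettl14 knockout against control ranged from -0.16 to 0.16 for Aen, -0.17 to 0.092 for Bax, -0.028 to 0.50 for Sesn2 and -0.34 to 0.20 for Trp53inp1. Between the knockouts they ranged from -0.15 to 0.22 for Bbc3, -0.14 to 0.16 for Ccnb1, -0.47 to 0.21 for Fas, -0.22 to 0.37 for Pmaip1, -0.20 to 0.051 for Rrm2b and -0.87 to 0.065 for Trp53inp1. The shallowest library had 4354273 reads on genes, and what depth limits was not tested.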
